A study of Mus musculus with 4 samples.

Results

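G2/M thymocytes were defined here as droplet barcodes whose unique molecular identifiers (UMIs, 1 per captured transcript) of Mki67, Top2a, Birc5 and Ccnb2 summed to 4 or more and that held no UMI of Rag1, the recombinase gene of immature thymocytes. Members were thus chosen by measured UMIs of these 5 genes, which are described but support no result. Barcodes had at least 2000 UMIs, at least 500 detected genes and at most 10% mitochondrial UMIs. The definition found 534 of 12929 such barcodes in the WT library and 700 of 14381 in the Cgas KO library. WT thymocytes came from Cd4Cre mice and Cgas KO thymocytes from Cd4Cre Cgasfl/fl mice, so both groups carried the Cre transgene under the Cd4 promoter, which is active from the CD4 and CD8 double-positive stage of T cell development onwards. Cells of both groups had been sorted as CD4+CCR7+, and the study asked how cGAS affects their transcription. Each genotype had 1 gene expression library and 1 T cell receptor (TCR) library. Genotypes were therefore compared without a test. The sources used here do not give the number, age or sex of the mice behind each library. Bounds in parentheses are exact at 95% and reflect counting error alone, and a difference between libraries cannot be told apart from a difference between genotypes.

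A cell in the S, G2 and M phases copies its DNA, condenses and separates its chromosomes and splits, and each step has its own transcripts. Mki67 encodes the proliferation antigen Ki-67 that coats mitotic chromosomes, Top2a the topoisomerase that disentangles sister chromatids, Birc5 the survivin subunit of the chromosomal passenger complex, and Ccnb2 a mitotic cyclin. In the thymus most division takes place in the double-negative and early double-positive stages, before positive selection, and again late in medullary maturation, when semi-mature single-positive cells (Cd24a, Ccr9, Sox4, Satb1) become mature ones that gain Klf2 and S1pr1 and leave. cGAS senses DNA in the cytosol, signals through STING to interferon genes, and is held on nucleosomes during mitosis.

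The promoters of the 4 genes of the sum are shown with that of Ube2c, the gene outside the sum with the largest difference between G2/M and other barcodes, and that of Cgas, the deleted gene. Each window holds 250 bases before and 50 bases after the annotated start, read 5′ to 3′ in the gene's direction, from RefSeq on GRCm38.p6. Capitals mark exact matches, on either strand, to TTTGAA (the cell cycle homology element core bound by the DREAM and MuvB complexes), to CCAAT (the NF-Y box), and to 4 spellings of an E2F site, TTTCCCGC, TTTGGCGC, TTTCGCGC and TTTGCCGC. A capital run in Ube2c holds CCAAT and its reverse complement in overlap.
Mki67, chr7:135716330-135716629, minus strand: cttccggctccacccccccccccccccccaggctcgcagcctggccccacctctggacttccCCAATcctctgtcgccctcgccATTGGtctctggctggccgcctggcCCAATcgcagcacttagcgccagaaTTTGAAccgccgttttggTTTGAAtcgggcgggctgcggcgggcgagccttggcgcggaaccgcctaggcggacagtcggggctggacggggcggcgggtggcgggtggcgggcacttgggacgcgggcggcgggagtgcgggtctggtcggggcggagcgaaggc
Top2a, chr11:99024140-99024439, minus strand: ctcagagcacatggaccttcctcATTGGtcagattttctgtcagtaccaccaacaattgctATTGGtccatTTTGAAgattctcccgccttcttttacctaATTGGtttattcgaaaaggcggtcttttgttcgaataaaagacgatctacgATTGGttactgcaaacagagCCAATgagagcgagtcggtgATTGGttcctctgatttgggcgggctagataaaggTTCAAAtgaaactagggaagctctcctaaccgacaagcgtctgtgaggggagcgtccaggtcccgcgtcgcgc
Ccnb2, chr9:70421505-70421804, minus strand: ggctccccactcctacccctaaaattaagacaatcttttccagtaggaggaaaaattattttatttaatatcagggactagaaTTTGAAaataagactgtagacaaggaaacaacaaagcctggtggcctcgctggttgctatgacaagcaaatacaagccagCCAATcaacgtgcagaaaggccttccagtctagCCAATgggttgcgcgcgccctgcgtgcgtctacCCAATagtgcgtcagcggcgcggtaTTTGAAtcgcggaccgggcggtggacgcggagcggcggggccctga
Birc5, chr11:117848987-117849286, plus strand: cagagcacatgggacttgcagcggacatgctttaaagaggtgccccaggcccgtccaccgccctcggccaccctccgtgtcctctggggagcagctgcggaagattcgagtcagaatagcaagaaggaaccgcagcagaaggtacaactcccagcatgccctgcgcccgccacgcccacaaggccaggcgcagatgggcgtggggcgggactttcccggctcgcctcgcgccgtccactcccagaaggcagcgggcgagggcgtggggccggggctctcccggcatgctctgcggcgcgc
Ube2c, chr2:164769679-164769978, plus strand: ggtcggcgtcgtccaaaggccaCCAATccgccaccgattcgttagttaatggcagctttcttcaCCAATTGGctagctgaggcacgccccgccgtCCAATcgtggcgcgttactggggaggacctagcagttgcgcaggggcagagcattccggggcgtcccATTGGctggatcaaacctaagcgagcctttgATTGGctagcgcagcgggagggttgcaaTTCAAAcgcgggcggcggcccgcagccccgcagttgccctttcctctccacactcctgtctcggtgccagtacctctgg
Cgas, chr9:78443188-78443487, minus strand: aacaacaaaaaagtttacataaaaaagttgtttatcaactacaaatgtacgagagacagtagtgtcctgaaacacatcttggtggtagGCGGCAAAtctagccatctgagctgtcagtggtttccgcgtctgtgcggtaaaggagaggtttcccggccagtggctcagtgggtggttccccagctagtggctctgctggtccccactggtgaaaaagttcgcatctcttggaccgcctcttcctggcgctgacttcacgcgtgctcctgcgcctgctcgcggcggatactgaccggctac
Mki67, Top2a and Ccnb2 each held 2 matches to TTTGAA and at least 3 to CCAAT, whereas the Birc5 window held none of the 3 motifs. Ube2c held 1 match to TTTGAA and 6 to CCAAT. The Cgas window held 1 match to the E2F spellings and none to the others. Among the 32 genes of a 38-gene list of G2 and mitosis with a RefSeq window, 23 (71.9%) held TTTGAA, against 17.9% of all 32851 promoter windows and 12.5% of 24 matched genes of a DNA replication list. The share was 15.1% among 5684 measured genes with a window, and 4 of 9 matched semi-mature genes held it. A gene was counted when any of its windows matched, whereas the share of all promoters is per window. E2F spellings were found in 45.8% of those 24 replication genes, 3.13% of the G2 and mitosis genes, 6% of the measured genes and 2.26% of all windows. A match describes the letters in the window, not binding.

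Before the comparisons, 2 features of the libraries bear on the G2/M barcodes. In the Cgas KO TCR library 583 sets of identical TCR chains were each carried by exactly 2 kept barcodes, 1166 barcodes in all, against 17 such sets (16 of 2 barcodes and 1 larger) in WT. Of the G2/M barcodes with an alpha and a beta chain, 86 of 568 in Cgas KO (15.1%, 12.3% to 18.4%) shared all chains with another barcode, against 2 of 445 in WT (0.449%, 0.0545% to 1.61%). Among barcodes with a sum of 0 and no Rag1 the counts were 974 of 10197 in Cgas KO (9.55%, 8.99% to 10.1%) and 29 of 9169 in WT (0.316%). The 86 G2/M barcodes formed 46 sets, of which 40 had both barcodes in G2/M. Their median depth was 6140 UMIs against 11015 for the other Cgas KO G2/M barcodes. Results are therefore also given with the deepest barcode of each set alone. The other feature is that 276 barcodes were kept in both libraries. None of them was in G2/M in both, and 25 were in G2/M in 1 library and kept in the other. Whether shared sets were 2 cells or 1 cell counted again was not tested.

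Cgas was detected in both libraries. Levels are given as CPM, the UMIs of a gene after scaling the summed barcodes of each set to the same total. In G2/M barcodes Cgas had 21.3 CPM for WT and 12.4 for Cgas KO, a Cgas KO to WT ratio of 0.583 (0.445 to 0.762). In barcodes with a sum of 0 the levels were 2.21 and 1.26 CPM, a ratio of 0.570 (0.422 to 0.766). Per the labels' protocols the expression libraries were made with a 3′ kit, and the sources used here do not give the position of the floxed exons, so these levels do not check the deletion.

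G2/M barcodes made up 4.13% (3.79% to 4.49%) of kept WT barcodes and 4.87% (4.52% to 5.23%) of kept Cgas KO barcodes, a Cgas KO to WT ratio of 1.18 (1.05 to 1.32). With 1 barcode per shared set of TCR chains the counts were 533 of 12911 and 656 of 13798, and the ratio was 1.15. A further 67 WT and 107 Cgas KO barcodes had a sum of 4 or more together with Rag1, and fell outside the definition. Comparison barcodes, with a sum of 0 and no Rag1, numbered 10814 and 11968. The median G2/M barcode held 11488 UMIs in WT and 10446 in Cgas KO, against 4797 and 4352 at a sum of 0. Another set of comparison barcodes, with a sum of 0 and at least 8000 UMIs, numbered 1158 and 967 and had median depths of 9927 and 9708 UMIs.

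The 4 genes that define the set are given as a description. Top2a stood at 1091 (WT) and 1081 CPM (Cgas KO), Mki67 at 654 and 644 CPM, Birc5 at 485 and 542 CPM, and Ccnb2 at 220 and 250 CPM. Top2a had a UMI in 518 of 534 WT and 669 of 700 Cgas KO members, and Ccnb2, the sparsest, in 363 and 500. The median member had a sum of 28 UMIs in WT and 25 in Cgas KO, and the highest sums were 91 and 100. Free RNA, read from barcodes of 20 to under 200 UMIs, held the 4 genes at 325 and 355 CPM, against 2450 and 2517 CPM in members. At the edge of the definition, 44 WT and 50 Cgas KO barcodes had a sum of 3 and 19 and 36 had a sum of 4. DNA replication genes had 3565 and 4524 CPM in total at a sum of 3 and 4050 and 4940 CPM at a sum of 4, and G2 and mitosis genes 1024 and 1039 CPM against 976 and 1569 CPM. Satb1 went from 1574 and 1394 CPM at a sum of 3 to 1113 and 1136 CPM at a sum of 4, and Lgals1 from 272 and 506 to 634 and 873 CPM.

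**Figure D1:**
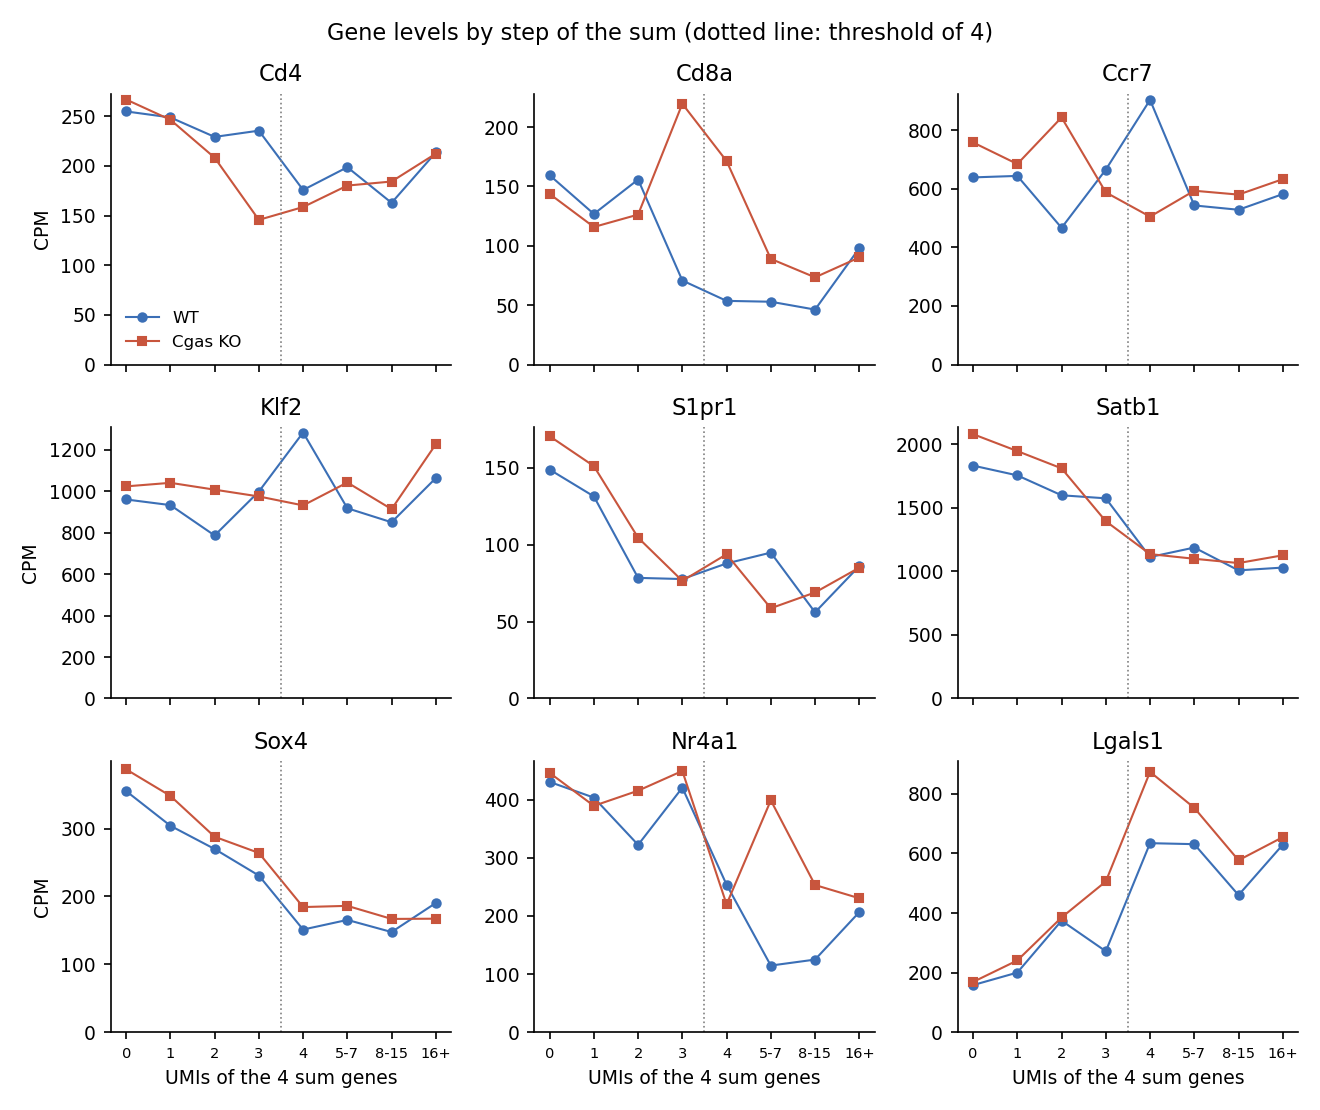
Levels (CPM of the summed barcodes, linear axes from 0) of 9 genes by the sum of Mki67, Top2a, Birc5 and Ccnb2 UMIs, with 1 line per library and a dotted line at the threshold of 4. Satb1 stood at 1832 (WT) and 2079 CPM (Cgas KO) at a sum of 0 and at 1030 and 1126 CPM at a sum of 16 and over, while Lgals1 had 158 and 169 CPM and then 629 and 655 CPM.

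G2/M barcodes held the transcripts of chromosome segregation. In what follows, values are given for WT and then Cgas KO members, against the same at a sum of 0. In the list of G2 and mitosis, 37 of 38 measured genes were at least 1.5-fold higher than at a sum of 0 in both libraries and 0 were lower, with a median log2 ratio of 5.60 in WT and 5.38 in Cgas KO. Over the 6948 measured genes (100 UMIs or more, and 20 CPM in a compared set), 968 were higher in both libraries (13.9%) and 522 were lower (7.51%), and the median log2 ratio was -0.06 and -0.07. Scaling by TMM factors gave 1120 higher and 344 lower. Because the definition is itself a sum of mitotic genes, nothing is read from these counts. With 1 barcode per shared set of TCR chains, 965 were higher and 520 lower. Ube2c, which loads ubiquitin for the anaphase-promoting complex, stood at 737 (WT) and 820 CPM (Cgas KO) against 2.95 and 2.78 CPM. Ccna2 (cyclin A2) had 266 and 277 CPM against 1.098 and 1.26 CPM. Cdk1, the mitotic kinase, stood at 254 and 269 CPM against 1.53 and 1.38 CPM. Cenpf, a kinetochore protein, had 314 and 349 CPM against 1.99 and 2.63 CPM. The exception was Pttg1, which encodes securin, at 43.2 and 41.9 CPM against 44.1 and 44.2 CPM. Smc4, a condensin subunit, was well expressed at a sum of 0 (326 and 341 CPM) and 1.94-fold and 1.86-fold higher in G2/M.

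Genes of DNA replication were high in the same barcodes. None of them entered the sum, but the sum picks dividing cells, so their levels are given as a description. All 27 were at least 1.5-fold higher in both libraries, with a median log2 ratio of 2.93 and 2.78. Rrm2, the ribonucleotide reductase subunit made in S phase, stood at 507 (WT) and 479 CPM (Cgas KO) against 3.12 and 3.63 CPM. Pclaf, the PCNA-binding factor and the gene outside the cell cycle lists with the largest difference, had 755 and 788 CPM against 2.95 and 3.53 CPM. Pcna, the sliding clamp, stood at 325 and 319 CPM against 62.7 and 64.3 CPM. Mcm3, a subunit of the replicative helicase, had 223 and 214 CPM against 39.8 and 38.9 CPM. The other genes that led the ranking outside the cycle lists were Neil3, Esco2, Depdc1a, Spc24, Mxd3, Shcbp1, Pbk, E2f8 and Ska1.

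The members ranged from replication-rich to mitosis-rich. Replication-list UMIs outnumbered G2 and mitosis UMIs in 232 of 534 WT members (43.4%) and 298 of 700 Cgas KO members (42.6%), and the reverse held in 300 and 401. The set called G2/M here thus also takes in barcodes rich in S phase transcripts. In replication-rich WT members Pcna had 498 CPM, and Ccnb1, the cyclin of mitotic entry, had 13.6 CPM. Their levels were 196 and 161 CPM in mitosis-rich WT members. Per 10000 UMIs, the median member held 68.5 UMIs of the mitosis list in WT and 73.0 in Cgas KO, and 53.8 and 52.2 of the replication list. The 38 mitosis-list genes do not include the 4 genes of the sum, and every member in either library held at least 1 UMI of them. Replication UMIs were absent from 1 WT and 2 Cgas KO members.

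**Figure D2:**
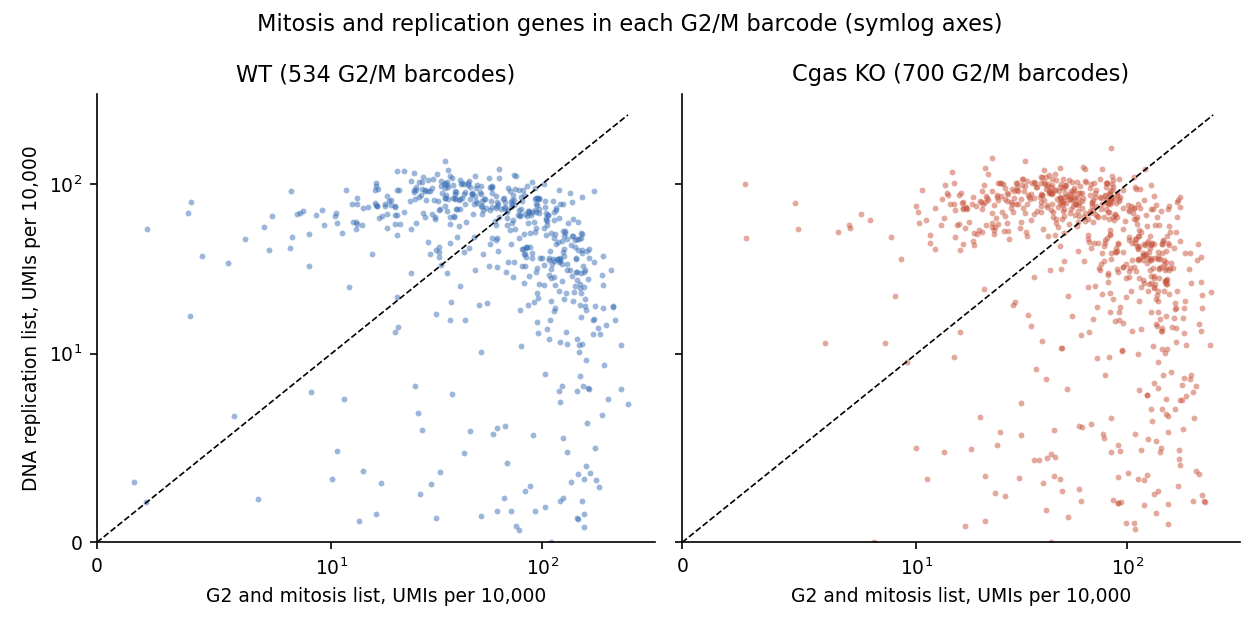
Each point is 1 G2/M barcode, with DNA replication list UMIs and G2 and mitosis list UMIs per 10000 UMIs on symmetric log axes, in 1 panel per library and with a dashed line of equality. Members spread along both axes in both libraries: 43.4% of WT and 42.6% of Cgas KO members held more replication than mitosis UMIs.

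Regulators of cycle entry and exit were mixed. Of 19 measured genes 10 were higher in both libraries and 3 were lower. The 3 lower genes were Ccnd2, a D-type cyclin (258 and 238 CPM against 437 and 392 CPM), Cdkn1b, the p27 inhibitor (102 and 116 CPM against 164 and 181 CPM), and Btg1, an anti-proliferation factor (379 and 395 CPM against 947 and 967 CPM). Against barcodes with a sum of 0 and at least 8000 UMIs, 9 of the 10 higher and 2 of the 3 lower genes passed again. Cdkn1b, with ratios of 0.734 and 0.738, did not. Ccnd3, the D-type cyclin used by immature thymocytes, was level at 722 and 743 CPM against 781 and 722 CPM. Cohesin and its partners followed the cycle lists: 9 of 14 were higher and 0 lower, with a median log2 ratio of 0.76 and 0.73. Rad21, the cleavable cohesin subunit, stood at 242 and 239 CPM against 77.7 and 78.5 CPM, and Ctcf, the boundary factor, at 235 and 260 CPM against 149 and 157 CPM. In contrast, 0 of 15 cell growth genes passed 1.5-fold in both libraries in either direction. Npm1, a nucleolar chaperone, had 896 and 910 CPM against 869 and 906 CPM, and Myc was 1.33-fold and 1.29-fold higher.

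For lineage, Cd4 and both Cd8 genes took lower shares of the UMIs in members than at a sum of 0. Cd4 stood at 204 CPM in each library against 255 and 267 CPM, ratios of 0.801 (0.757 to 0.847) and 0.765 (0.726 to 0.806). Counted per barcode the order was the other way, at 2.50 Cd4 UMIs per member in WT and 2.25 in Cgas KO against 1.37 and 1.29, since members held more UMIs. With each barcode thinned to 2000 UMIs, Cd4 had a UMI in 29.2% of WT and 31.9% of Cgas KO members, against 38.1% and 39.9% at a sum of 0. In barcodes with 2 or more UMIs of Nkg7, a cytotoxic granule gene used as a background for Cd4, the share was 11.6% and 8.75%. Without thinning the shares were 82.6% and 79.9% in members against 64.8% and 63.9%.

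Cd8a stood at 86.2 (WT) and 91.0 CPM (Cgas KO) against 160 and 144 CPM, ratios of 0.540 and 0.633, and Cd8b1 at 92.8 and 103 CPM against 150 and 147 CPM. After thinning, Cd8a had a UMI in 8.43% and 8.14% of members against 13.5% and 12.2% at a sum of 0. In barcodes with 2 or more Foxp3 UMIs, the background for Cd8a, the share was 4.69% (2.17% to 8.71%) and 6.03% (2.46% to 12.04%), intervals that overlap those of the members (6.21% to 11.1% and 6.23% to 10.4%). Thinned members with a Cd4 UMI and neither Cd8 chain made up 27.2% and 29.4%, those with a Cd8a or Cd8b1 UMI alone 9.74% and 11%, those with both 2.06% and 2.43%, and those with neither 61.0% and 57.1%. At a sum of 0 the Cd4-alone share was 32.9% and 34.2% and the Cd8-alone share 16.3% and 15.1%.

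Transcription factors of the CD4 lineage divided. Zbtb7b, which encodes the CD4 commitment factor ThPOK, had 53.4 (WT) and 51.2 CPM (Cgas KO) against 83.6 and 82.7 CPM. Tox, needed for CD4 lineage development, stood at 406 and 397 CPM against 679 and 733 CPM. Myb went the other way, at 54.6 and 62.2 CPM against 28.2 and 33.1 CPM. Gata3 had 69.9 and 67.8 CPM against 81.5 and 82.0 CPM, within 1.5-fold. Of 8 measured CD4 lineage genes 1 was higher and 2 were lower, with a median log2 ratio of -0.27 and -0.30. In the CD8 lineage list 0 of 5 were higher and Cd8a was lower. Runx3, the CD8 lineage factor, stood at 56.5 and 50.2 CPM against 72.0 and 68.7 CPM.

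A small subset of members was picked by its double-positive transcripts, after its values were seen. Dntt (terminal transferase), Arpp21 and Endou summed to 3 or more UMIs in 27 of 534 WT members (5.06%) and 42 of 700 Cgas KO members (6%). Cd8a had 844 and 838 CPM in those members against 45.5 and 49.0 CPM in members without a UMI of the 3 genes. Klf2 stood at 427 and 572 CPM against 1049 and 1196 CPM. Barcodes with a sum of 0 and 3 or more UMIs of the same genes (1.36% and 1.04%) had 914 and 917 CPM of Cd8a, so the level is not particular to members. Members were deeper, and the cut of 3 UMIs was made without thinning. The shares of members and of barcodes with a sum of 0 are therefore not compared. After thinning, Dntt had a UMI in 5.06% of WT and 5.57% of Cgas KO members, against 4.10% and 4.05% at a sum of 0. The intervals of members (3.36% to 7.27% and 3.99% to 7.54%) overlapped those at a sum of 0 (3.73% to 4.49% and 3.71% to 4.42%). Ptcra, the pre-TCR alpha chain, had 105 and 71.5 CPM in the members with 3 or more UMIs. An alpha and a beta chain were found in 5 of the 27 (18.5%) and 7 of the 42 (16.7%), and a beta chain without an alpha chain in 16 and 25. These members had no Rag1 UMI and so met the definition. Among the 67 WT and 107 Cgas KO barcodes with a sum of 4 or more and Rag1, which did not, 34.3% and 28.0% had both chains and 55.2% and 58.9% a beta chain alone.

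Of 5 measured double-positive genes 2 were higher in members (Dntt and Arpp21) and 1 was lower (Cd1d1), with a median log2 ratio of -0.06 and -0.10. Dntt stood at 43.0 (WT) and 48.4 CPM (Cgas KO) against 23.9 and 22.2 CPM, and Arpp21 at 31.5 and 39.8 CPM against 14.8 and 15.1 CPM. Cd1d1, an antigen-presenting molecule of cortical thymocytes, had 18.8 and 23.1 CPM against 45.9 and 45.96 CPM. With Rag1-positive barcodes kept in the comparison set alone, the 2 libraries no longer shared a direction for Dntt or Arpp21, while with the condition on Rag1 dropped on both sides the smaller log2 ratios were 1.46 and 1.13. With barcodes of 3 or more UMIs of Dntt, Arpp21 and Endou left out on both sides, the smaller of the 2 libraries' log2 ratios turned to -0.59 for Dntt and -0.37 for Arpp21, and that of Cd8a moved from -0.65 to -1.61. Without the condition on Rag1 the Cd8a value was 0.093. The Cd4 value was -0.32, and -0.30 and -0.36 under the same 2 changes. The direction of Cd8a in dividing thymocytes thus depended on whether Rag1-positive barcodes were counted, while that of Cd4 did not under these 2 changes.

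**Figure D3:**
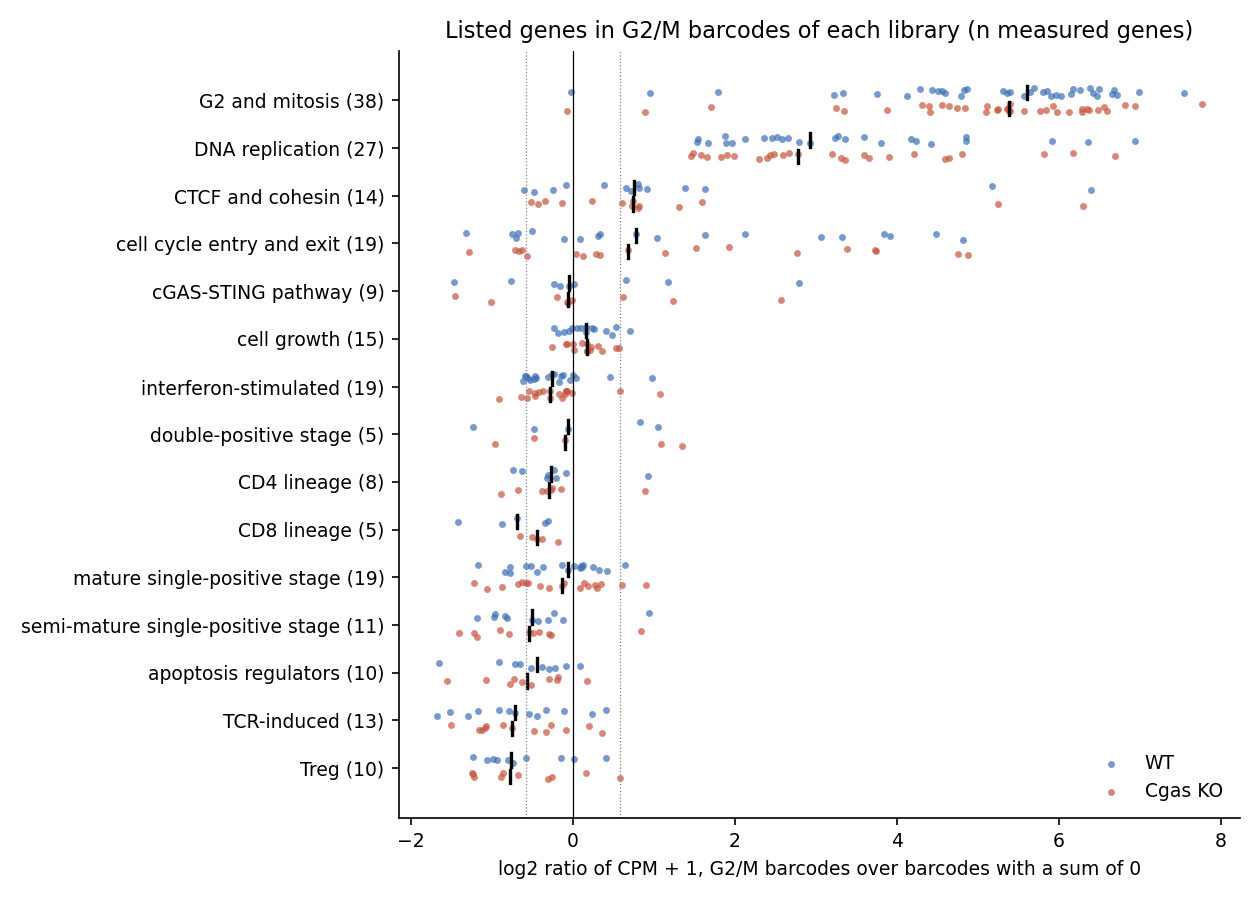
Log2 ratio (G2/M over a sum of 0, 1 CPM added) of every measured gene of the cycle, lineage and maturation lists, with WT and Cgas KO drawn separately and the list median marked. Cycle lists lie above 0, at medians of 5.60 and 2.93 in WT, while the Treg and TCR-induced lists have medians of -0.77 and -0.72 in WT.

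For maturation, of 11 semi-mature genes 1 was higher and 5 were lower in members of both libraries, with a median log2 ratio of -0.51 and -0.54. Satb1, the chromatin organiser of positively selected thymocytes, had 1040 (WT) and 1116 CPM (Cgas KO) against 1832 and 2079 CPM, ratios of 0.568 (0.554 to 0.582) and 0.537 (0.525 to 0.549). Sox4 stood at 181 and 169 CPM against 355 and 387 CPM. Ccr9, a thymic homing receptor, had 104 and 95.4 CPM against 239 and 255 CPM. Cd24a, the heat-stable antigen lost on maturation, stood at 32.8 and 41.1 CPM against 65.2 and 72.1 CPM, and Ccr4 at 25.1 and 20.04 CPM against 45.9 and 48.3 CPM. Id3, an E protein inhibitor induced by TCR signals, was the exception at 283 and 356 CPM against 148 and 198 CPM.

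Mature-stage genes were mostly within 1.5-fold: 1 of 19 was higher and 4 were lower, with a median log2 ratio of -0.07 and -0.14. Klf2, the factor that drives thymic exit, had 1030 (WT) and 1159 CPM (Cgas KO) against 960 and 1023 CPM. S1pr1, the exit receptor and a target of Klf2, stood at 82.5 and 81.5 CPM against 149 and 171 CPM. Thinned to 2000 UMIs, Klf2 had a UMI in 74.9% and 80.3% of members against 60.1% and 62.4% at a sum of 0, and S1pr1 in 12.9% and 13.6% against 21.8% and 23.7%. Klf2 thus lay above the comparison barcodes, though within 1.5-fold, and S1pr1 below them. The other lower genes were Slfn1 (127 and 137 CPM against 220 and 220 CPM), Gimap4 and Gimap6, a GTPase of lymphocyte survival (270 and 274 CPM against 611 and 643 CPM), and H2-Q7 was the higher one. Ccr7, on which the cells were sorted, had 581 and 617 CPM against 638 and 758 CPM.

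Against barcodes with a sum of 0 and at least 8000 UMIs, a comparison closer in depth that was added after the data were seen, 841 of the 968 higher and 339 of the 522 lower genes passed again. The ratio of Cd4 was then 0.84 in WT and 0.82 in Cgas KO, that of Cd8a 0.55 and 0.63, that of Satb1 0.60 and 0.58, and that of Ccr9 0.46 and 0.41. Klf2 had ratios of 1.26 and 1.28. S1pr1, at 0.76 in WT, no longer passed 1.5-fold, and of the 4 lower mature genes 2 passed. Zbtb7b, at 0.676 in WT, also lost the call, which left 1 of the 2 lower CD4 lineage genes. All 5 lower semi-mature genes passed again.

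Genes induced by TCR signals were lower. Of 13 measured, 0 were higher and 7 were lower in both libraries, with a median log2 ratio of -0.72 and -0.76. Nr4a1, an immediate reporter of TCR signalling, stood at 190 (WT) and 244 CPM (Cgas KO) against 430 and 446 CPM. Dusp5, a phosphatase of the ERK pathway, had 47.6 and 57.0 CPM against 154 and 164 CPM. Junb, an AP-1 subunit, stood at 474 and 553 CPM against 1502 and 1715 CPM and was among the 10 genes lowest in members, with Slfn5, Tcp11l2, Kdm5b, Dlgap4, Kdm7a, Bbc3, Rasgrp4, Mccc1 and Dusp5.

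Regulatory T cell genes were lower as well, 6 of 10 with 0 higher and a median log2 ratio of -0.77 in each library. Ikzf2, which encodes Helios, had 133 (WT) and 120 CPM (Cgas KO) against 263 and 283 CPM. Tnfrsf18, which encodes GITR, stood at 80.0 and 81.7 CPM against 154 and 152 CPM, and Ctla4 at 28.9 and 22.0 CPM against 51.0 and 52.7 CPM. Foxp3 was under the minimum for measurement, at 5.82 and 3.23 CPM against 14.3 and 9.50 CPM. After thinning, a Foxp3 UMI was found in 0.375% and 0.571% of members, below the 2.20% and 1.01% of barcodes with 2 or more Nkg7 UMIs, so no Foxp3 level is read in members. Ikzf2, Tnfrsf18 and Ctla4 are also known to be induced by strong TCR signals.

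Apoptosis regulators were lower in 4 of 10 and higher in 0. Bcl2l11, which encodes the BH3-only protein BIM of negative selection, had 47.4 (WT) and 45.4 CPM (Cgas KO) against 89.96 and 96.8 CPM. Bbc3, which encodes PUMA, stood at 10.6 and 10.3 CPM against 35.5 and 32.4 CPM. Mcl1, a survival factor, had 234 and 213 CPM against 385 and 365 CPM, and Fas was also lower. Against the deeper comparison barcodes Mcl1 and Fas no longer passed 1.5-fold in both libraries. Interferon-stimulated genes mostly lay within 1.5-fold, with 1 of 19 higher and 1 lower. Ly6a, which encodes Sca-1, stood at 79.6 and 70.1 CPM against 40.1 and 32.8 CPM, and Ifit1 at 38.7 and 26.2 CPM against 59.9 and 50.3 CPM. Against the deeper comparison barcodes Ifit1, at 0.704 in WT and 0.592 in Cgas KO, no longer passed 1.5-fold in both libraries.

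Of 9 measured genes of the cGAS and STING pathway 3 were higher in members (Cgas, Banf1 and G3bp1) and 2 were lower (Samhd1 and Ikbke). Cgas itself was 9.61-fold (7.51 to 12.3) higher in WT members than at a sum of 0 and 9.83-fold (7.18 to 13.5) higher in Cgas KO members. Against barcodes with a sum of 0 and at least 8000 UMIs, where Cgas had 3.57 and 0.994 CPM, the ratios were 5.96 and 12.5, and G3bp1 no longer passed 1.5-fold. These Cgas ratios have no interval and rest on comparison levels near the floor, so the difference between the libraries is not read. Thinned to 2000 UMIs, a Cgas UMI was found in 3.75% of WT and 3% of Cgas KO members against 0.277% and 0.234% at a sum of 0. Banf1, the chromatin protein BAF that limits cGAS activation on self DNA, had 433 and 442 CPM against 192 and 188 CPM. Samhd1, the dNTP hydrolase, stood at 107 and 91.5 CPM against 298 and 254 CPM. Sting1 was level at 61.2 and 57.5 CPM against 68.5 and 60.4 CPM.

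Within G2/M, lineage and maturation genes lay in both directions between replication-rich and mitosis-rich members. Cd4 was 1.41-fold (1.26 to 1.58) higher in the mitosis-rich WT members and 1.44-fold (1.29 to 1.6) higher in the Cgas KO ones. S1pr1 was 2.10-fold (1.73 to 2.56) and 1.67-fold (1.40 to 1.99) higher, Klf2 1.27-fold and 1.39-fold, Ms4a4b, a late maturation gene, 1.76-fold and 1.56-fold, and Sox4 1.42-fold and 1.54-fold. Ccr7 was level, with ratios of 0.98 and 1.07. Other genes lay the other way, among them Runx3 at 0.784 and 0.629 and Ikzf2 at 0.841 and 0.645. Ccr9 did so in WT, at 0.742 (0.637 to 0.866), while its Cgas KO ratio of 0.904 (0.780 to 1.05) had an interval that included 1. Zbtb7b had ratios of 0.848 (0.683 to 1.05) and 0.937 (0.764 to 1.15), and Cd8a was split between the libraries at 0.846 and 1.17. Cgas was also lower in mitosis-rich members, at 0.567 (0.399 to 0.804) and 0.380 (0.243 to 0.587). In WT its level was 28.4 CPM in replication-rich and 16.1 CPM in mitosis-rich members. The split was made on the cycle genes, and these genes were not part of it.

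Some genes outside the lists differed by step of the sum and are named after their values were seen. Igfbp4 had 1002 CPM in the WT members and 971 in the Cgas KO members against 316 and 300 CPM at a sum of 0. Lgals1, which encodes galectin-1, stood at 605 and 659 CPM against 158 and 169 CPM, and Crip1 at 727 and 855 CPM against 174 and 195 CPM. All were already above the sum-0 level in barcodes with a sum of 1, at 495 and 483 CPM for Igfbp4. Satb1 and Sox4 were lower there, with Sox4 at 304 and 348 CPM against 355 and 387 CPM.

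By genotype, few genes passed 1.5-fold in G2/M members. Of 6539 measured genes 16 passed 1.5-fold upwards in Cgas KO (0.245%) and 18 downwards (0.275%), and the median log2 ratio was -0.004. At 1.2-fold the counts were 223 (3.41%) and 300 (4.59%). Of the 34 genes past 1.5-fold, 31 lay in the same direction at a sum of 0 and 22 passed 1.5-fold there. With 1 barcode per shared set of TCR chains the counts at 1.5-fold were 16 and 20. In the cycle lists few genes passed 1.2-fold: in G2 and mitosis 4 of 38 passed 1.2-fold upwards in Cgas KO and 0 downwards, and in replication 0 of 27 were higher and 2 lower. Kif11, the spindle kinesin Eg5, had 227 (WT) and 290 CPM (Cgas KO), a ratio of 1.28 (1.2 to 1.36). Sgo1, the shugoshin that guards centromeric cohesion, stood at 47.3 and 65.4 CPM, a ratio of 1.38 (1.2 to 1.6). Aurka and Bub1 were the other two. Fen1, the flap endonuclease, had 150 and 124 CPM, and Gins2 51.7 and 41.0 CPM.

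Several of the genes that differed most by genotype belong to 1 interferon-inducible family. Of the 34, 8 were on chromosome 1, out of 377 measured there, and 8 were on chromosome 12, out of 242. On chromosome 1, Ifi213 stood at 1.22 CPM in the WT members and 64.0 in the Cgas KO members, a ratio of 52.3 (26.3 to 122), against a ratio of 104 at a sum of 0. Ifi206 had 4.29 and 75.3 CPM, Ifi208 52.3 and 103 CPM, and Ifi209 49.4 and 93.1 CPM. In the opposite direction, Aim2, the DNA sensor of the inflammasome, stood at 32.8 and 5.82 CPM, a ratio of 0.178 (0.126 to 0.246), and Ifi214 at 32.6 and 15.5 CPM. The Ifi genes named here resemble each other in sequence, and how reads were assigned among them was not tested. Slamf6, a SLAM receptor also on chromosome 1, had 21.0 and 54.7 CPM. On chromosome 12, Klhdc2 stood at 93.8 and 45.3 CPM, Rnf144a at 10.7 and 22.9 CPM, and Kidins220 at 23.6 and 43.2 CPM.

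Some genotype ratios were further from 1 in members than at a sum of 0. H4c16, a histone H4 gene, had 16.5 CPM in the WT members and 48.7 in the Cgas KO members, a ratio of 2.95 against 1.87 at a sum of 0. H2ac15, a histone H2A gene, stood at 40.4 and 71.0 CPM, a ratio of 1.76 against 1.02. Histone genes are near-identical copies, and how reads were assigned among them was not tested. The differences between the 2 ratios were not tested either. Nr4a3, a TCR-induced factor, had 20.7 and 31.3 CPM, a ratio of 1.51 (1.22 to 1.88) against 1.11. Lgals3 lay downwards, at 26.6 and 13.6 CPM, a ratio of 0.510 (0.396 to 0.653) against 1.03. In WT members 74 of its 174 UMIs were in 5 barcodes. Btaf1 stood at 46.7 and 88.3 CPM and Dynlt1b at 116 and 50.9 CPM, with like ratios of 1.69 and 0.492 at a sum of 0. Ly6k (27.6 and 10.2 CPM), Ahr (21.3 and 10.5 CPM) and Apol9b (32.1 and 17.2 CPM) were also lower in Cgas KO members. Their ratios at a sum of 0 were 0.394, 0.623 and 0.468.

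Lineage and maturation genes were close between genotypes in members. Cd4 had a Cgas KO to WT ratio of 1.0 (0.929 to 1.08), Cd8a 1.06 (0.944 to 1.18), Zbtb7b 0.959 (0.828 to 1.11), S1pr1 0.987 (0.879 to 1.11), Klf2 1.12 (1.09 to 1.16) and Satb1 1.07 (1.04 to 1.11). No CD4 or CD8 lineage gene passed 1.2-fold, and 1 of 19 mature genes did, H2-Q7 at 0.754 (0.669 to 0.849). Of 11 semi-mature genes 2 were higher in Cgas KO, Id3 and Cd24a, each with a ratio of 1.26, and 1 was lower, Ccr4 at 0.798 (0.637 to 1.001). Regulatory T cell genes had 2 of 8 lower, Izumo1r at 226 (WT) and 153 CPM (Cgas KO) and Ctla4 at 28.9 and 22.0 CPM. Interferon-stimulated genes had 5 of 19 lower and 0 higher at 1.2-fold, with a median log2 ratio of -0.18 in members and -0.20 at a sum of 0. Irgm1, an interferon-induced GTPase, had 77.6 and 55.1 CPM, and Ifit1 had a ratio of 0.678 (0.561 to 0.819). Sting1 had a ratio of 0.94 (0.819 to 1.08).

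**Figure D4:**
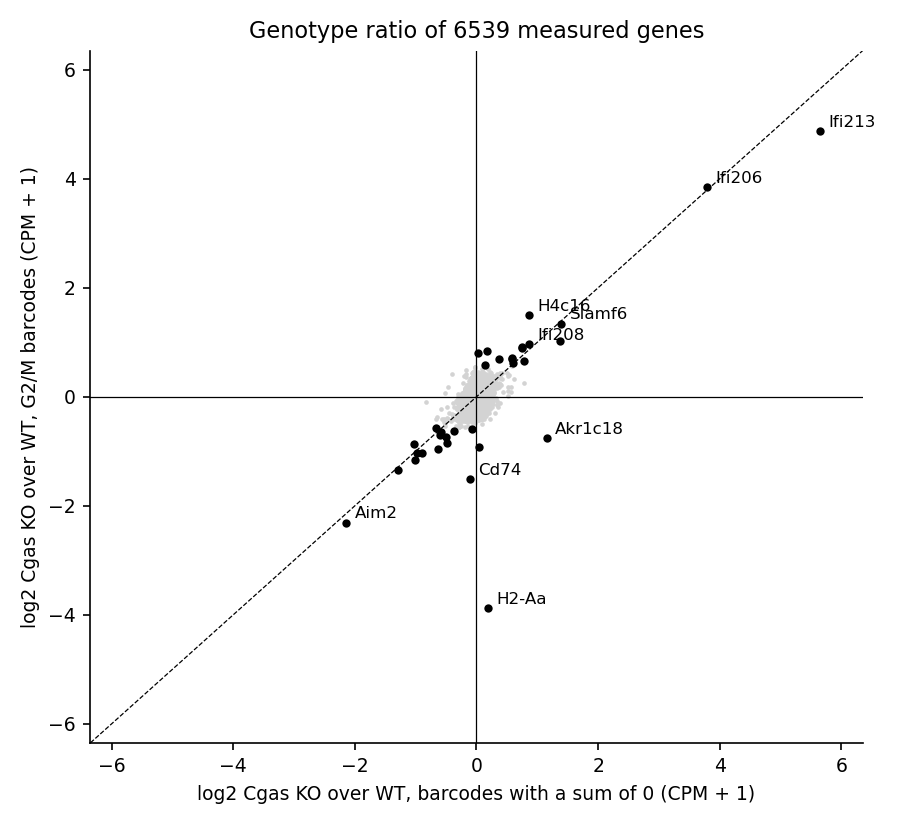
Log2 ratio of Cgas KO over WT (1 CPM added) in G2/M members against the same ratio at a sum of 0, with 1 point per measured gene, the genes past 1.5-fold in members in black and some of them labelled. Most points lie near 0 on both axes, and Ifi213 and Ifi206 lie far above it on both, with ratios of 52.3 and 17.6 in members.

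Members without any TCR contig were more frequent than at a sum of 0, and members with a beta chain alone were less frequent. An alpha and a beta chain were found in 83.3% of WT and 81.1% of Cgas KO members against 84.8% and 85.2% at a sum of 0. A beta chain without an alpha chain was found in 4.49% and 5.29% against 7.76% and 8.45%, and no contig in 11.8% and 12.6% against 6.42% and 5.08%. Members without a contig were deep, with median UMIs of 16606 in WT and 15370 in Cgas KO against 11166 and 10021 with one. They held Cd3e at 980 and 1032 CPM against 923 and 912 CPM. In WT they also held H2-Aa at 128 CPM against 1.63 CPM and Cd79a at 26.7 CPM against 1.63 CPM. In Cgas KO these were 0 against 0.627 CPM and 2.95 against 0.627 CPM. Among all WT members, 128 of 139 H2-Aa UMIs were in 1 barcode, and 27 of 36 Cd79a UMIs were in 1 barcode. At least 2 beta chains, which can come from 2 cells in 1 droplet, were found in 8.24% and 12.6% of members against 8.34% and 8.92%. The median beta chain had 26 and 23 UMIs in members against 14 and 13.

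**Figure D5:**
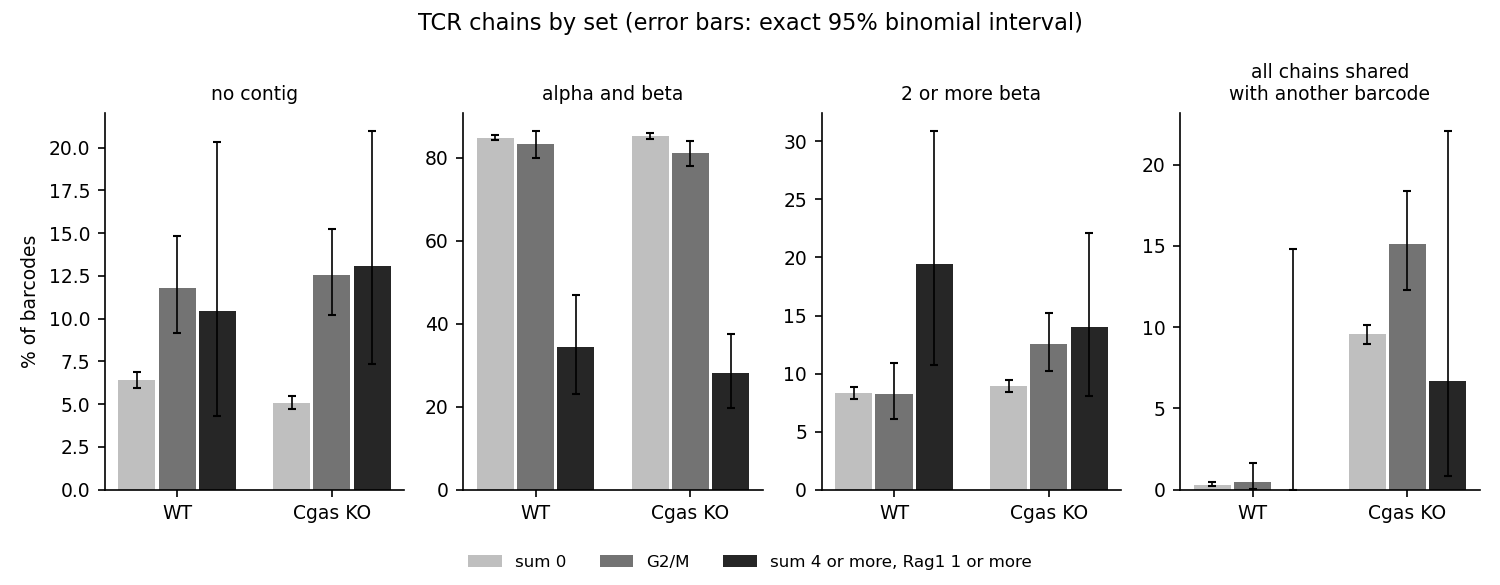
Percent of barcodes (bars, with exact 95% intervals for counting error) with no contig, with both chains, with 2 or more beta chains and with all chains shared with another barcode. Bars are barcodes with a sum of 0, G2/M members, and Rag1-positive barcodes with a sum of 4 or more, for each library. Members without any contig made up 11.8% in WT and 12.6% in Cgas KO, against 6.42% and 5.08% at a sum of 0.

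Marker lists of other cell types were summed in members. B cell markers reached 9.64 (WT) and 2.97 CPM (Cgas KO) against 4.63 and 5.17 CPM at a sum of 0. In WT 27 of the 36 Cd79a UMIs were in 1 member, and in Cgas KO Ms4a1 and Pax5 were at 0. Myeloid markers summed to 2.60 and 1.16 CPM against 5.01 and 2.18 CPM, and erythroid markers to 2.30 and 4.53 CPM against 3.31 and 50.4 CPM. Stromal markers summed to 87.7 and 94.0 CPM against 129 and 138 CPM, of which Pecam1 made up 82.0 and 89.2 CPM in members. Innate-like T cell markers summed to 102 and 88.1 CPM against 129.6 and 142 CPM, of which Slamf1 made up 43.16 and 39.95 CPM in members. Zbtb16, which encodes PLZF of innate-like T cells, lay the other way. After thinning it had a UMI in 0.562% and 0.571% of members against 0.074% and 0.125% at a sum of 0. All 55 of its UMIs in WT members were in 5 barcodes, and all 67 in Cgas KO members were in 4. Dendritic cell markers summed to 277 and 185 CPM against 266 and 241 CPM, of which Bst2, also an interferon-stimulated gene, made up 157 and 148 CPM. In WT, 1 barcode held 128 of the 139 H2-Aa UMIs of members, and 262 of 511 Cd74 UMIs were in 1 barcode. Leaving out barcodes with 20 or more H2-Aa UMIs gave 17 genes higher and 16 lower in Cgas KO. The part of such barcodes in the other results was not tested.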

How the data were processed

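Gene expression and TCR libraries of sorted CD4+CCR7+ thymocytes were analysed, 1 of each per genotype. The authors deposited unfiltered UMI counts per gene and barcode, whose matrix header names Cell Ranger 8.0.1 per the file headers, whereas Cell Ranger 7.0, Seurat 5.1.0 and mm10 are listed per the submitters' processing notes. The difference in version was not resolved. The deposited contig tables give UMI counts per TCR chain, and the sources used here do not name the tool that made them. In WT and Cgas KO there were 588428 and 586687 barcodes, 33696 genes and 84763106 and 87310091 UMIs. The members, gene lists and tests were chosen with earlier results of these data known.

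UMIs were summed over the barcodes of a set and scaled to CPM (pandas 2.3.3, scipy 1.17.1 and numpy 2.4.6 under Python 3.11.15), and 1 CPM was added before log2. Genes needed 100 UMIs and 20 CPM in a compared set. A gene counted as higher or lower than at a sum of 0 when it passed 1.5-fold in both libraries. Intervals were exact Poisson, Clopper-Pearson or conditional binomial at 95%. For shares of barcodes with a UMI, every barcode was first thinned to 2000 UMIs, with no kept barcode shallower. No doublet caller was run; barcodes with 2 or more beta chains were left out as an alternative. Named genes were the defining genes, up to 6 per list with the largest ratios or a described role, the 10 highest and 10 lowest of each comparison, and a few genes always given. Of 315 list genes 314 were in the matrices. Promoter windows were matched by symbol. Alternatives changed the sum, depth, mitochondrial and Rag1 conditions, the scaling (TMM from edgeR 4.0.16 in R 4.3.3), the low-count filter, thinning and shared TCR chains. The ratio scripts were tested on simulated data.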

Additional observations from a re-analysis of the deposited data

Results flagged for a closer look

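H2-Aa, an MHC class II gene of antigen-presenting cells, was 7.17-fold higher in WT G2/M members than at a sum of 0, and its ratio in Cgas KO members was 0.146. The libraries lay in opposite directions, and the difference between them was not tested. In WT 128 of the 139 UMIs were in 1 barcode.

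Akr1c18, a steroid-metabolising reductase, had a Cgas KO to WT ratio of 0.579 in G2/M members and 2.59 at a sum of 0. The directions were opposite, and the difference was not tested. In WT members 164 of its 200 UMIs were in 5 barcodes.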

How the results depend on the processing

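No paired analysis was possible because each genotype had 1 library of each kind. Counting intervals do not cover variation between mice. The Cgas KO to WT ratio of G2/M shares lay between 1.13 and 1.27 under all alternatives run. With no minimum beyond 20 UMIs, 1658 genes were higher and 1307 lower than at a sum of 0, and 266 were higher and 273 lower in Cgas KO. With TMM factors 344 genes were lower than at a sum of 0. Thinned to 2000 UMIs, 42 genes were higher and 37 lower in Cgas KO, of which 7 and 3 were the genes called without thinning. With a minimum of 50 CPM these counts were 9 and 5; fewer genes are tested there. Without thinning, the ratio of the Cd4 share in members to that at a sum of 0 was 1.27 in WT and 1.25 in Cgas KO, against 0.767 and 0.799 after thinning; members were deeper. The share of members with Cd4 alone was 59.7% and 54.3% without thinning and 53.0% and 48.3% at 2 or more UMIs. The smaller log2 ratio of Cd8a turned to 0.093 with no condition on Rag1, and those of Dntt and Arpp21 turned to -0.59 and -0.37 without barcodes with 3 or more Dntt, Arpp21 and Endou UMIs. Depth limited Foxp3, Cgas and other genes of a few CPM.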
